A study of Mus musculus with 6 samples.

Results

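The genes described here are 31 components and targets of the integrated stress response, chosen by symbol: Atf4 itself, its partner transcription factors, and genes of amino acid supply and stress feedback that ATF4 is known to induce. All 31 were found among the 53465 genes of the count table through GENCODE M21, and 25 had enough counts to enter the test of 8200 genes. The cells were ID8, a mouse ovarian surface epithelial cancer line. Ribosome-protected fragments, the short stretches of mRNA shielded from nuclease by translating ribosomes, were counted in 3 libraries labelled WT (a non-targeting control guide, sgNC) and 3 labelled KO (a guide against Nat10, the RNA acetyltransferase of N4-acetylcytidine). Every library came from cells exposed for 2 minutes to 100 µg/mL of cycloheximide, which stalls elongating ribosomes. The sources used here do not give the guide's cut site or whether the cells are 1 clone.

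In the integrated stress response, kinases that sense amino acid shortage, misfolded protein, heme deficiency or double-stranded RNA phosphorylate the initiation factor eIF2. General translation then slows, while the Atf4 mRNA is translated more, because short open reading frames in its leader no longer divert ribosomes from the main one. ATF4 pairs with C/EBP factors and switches on asparagine and serine synthesis, one-carbon enzymes, amino acid transporters and feedback genes such as Ddit3 and Ppp1r15a. A fragment count reflects both the amount of an mRNA and how densely it is translated. Matched RNA measurements were not used here, so these contributions cannot be told apart, and fewer expressing cells cannot be told from fewer fragments per cell.

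Library totals ran from 1687466 to 3126208 counts. They were higher in each KO library than in any WT library (2234305 to 3126208 against 1687466 to 2148715). The local peak of the distribution of gene counts, the modal count, was also higher (42 to 60 against 15 to 39), and is read here as roughly what 1 amplified molecule contributes. Dividing each count by that peak gives what are called molecule equivalents below. Library totals in this unit were 112498, 102320 and 46442 in WT and 60506, 48572 and 52103 in KO. On this reading the KO libraries did not hold more molecules than WT replicates 1 and 2. The targeted gene, Nat10, stood at 112 ± 53.1 CPM over the WT libraries and 106 ± 43.1 CPM over the KO libraries, with a log2 fold change of -0.074 (SE 0.48, n = 3; edgeR adjusted p = 1.0). Here CPM is the count relative to its library's total, scaled by TMM, the trimmed mean of M-values. All directions below are therefore those of the labels, since no loss of Nat10 fragments was measured. Of 8 ovarian surface and mesothelial markers 7 were tested: Krt19, Msln, Krt18, Lgals1, Upk3b, Wt1 and Krt8. Krt19 stood at 2201 to 4380.1 CPM in every library. Krt8 had a single count in KO replicate 1 (log2 fold change -2.42, SE 0.87). Krt7 had 6 counts, all in WT replicate 1, and was not tested. Over 7 leukocyte markers the summed level was 0 to 14.5 CPM, and Ptprc had a single count in all 6 libraries together. Among 6 fibroblast and endothelial markers only Col1a1 was tested (67.1 ± 21.9 CPM in WT against 6.17 ± 8.77 in KO). Between groups Krt19 and Krt18 fell (log2 fold change -0.92 and -1.74; edgeR adjusted p = 0.0044 and 0.02) and Msln rose (1.05; adjusted p = 0.015). The part of depth and of these marker shifts in the values below was not tested.

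None of the 25 tested members was called at an edgeR adjusted p under 0.05, in a comparison that called 0.402% of all genes (33), 0.22% lower and 0.183% higher. Leaving out 1 library reduced those 33 calls to 6 without WT replicate 2 and 6 without WT replicate 3. The closest were Ddit4 (adjusted p = 0.065), Asns (0.069) and Atf4 (0.11), all lower in KO, which ranked 42, 50 and 67 of 8200 genes by p. DESeq2 called these same 3 genes lower (adjusted p = 1.2e-05, 0.00029 and 0.00064), where it called 1.59% of all genes lower and 1.3% higher. At an unadjusted edgeR p under 0.05 stood 5 members, all lower in KO and none higher, while 3.79% of all genes passed lower and 2.7% higher. For 6 members every KO library lay below every WT library: Atf4, Asns, Psph, Shmt2, Slc38a2 and Ddit4. That separation was found for 7.93% of all tested genes, and for 13.0% of the 1740 genes averaging at least 100 CPM, a level reached by 11 members of which 5 separated as lower and 0 as higher (9.6% of those genes were wholly higher). No tested member lay wholly higher in KO, against 6.94% of all tested genes. Negative fold changes were seen in 17 of the 25, against 51.0% of all genes, and their median was -0.43 against -0.016 over all genes. These counts describe the members that passed the count filter and are no test of the group.

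**Figure D1:**
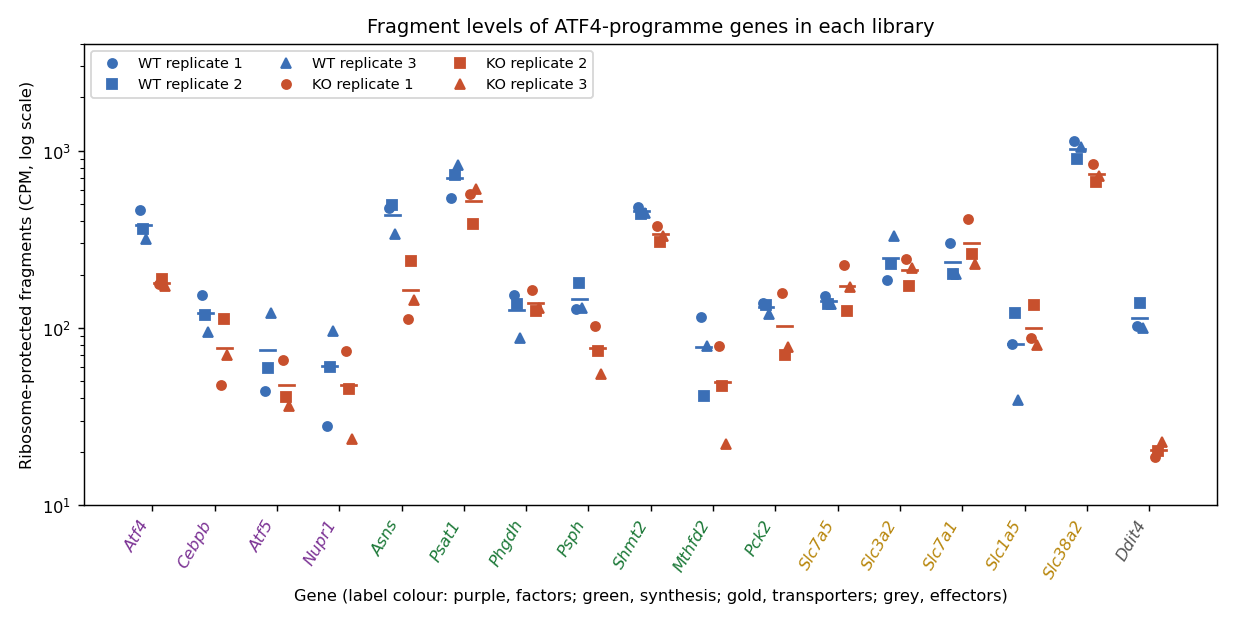
TMM-scaled CPM (log axis) of the 17 tested members averaging at least 3 molecule equivalents, with 1 point per library and a short line at each group mean. Ddit4 in KO sits between 18.7 and 22.6 CPM, below all WT libraries, while for Phgdh and the transporters Slc7a1, Slc7a5, Slc3a2 and Slc1a5 the groups overlap.

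ATF4 and its C/EBP partners bind a composite element, the C/EBP-ATF response element, and its core is shown here because it is what some members share upstream of their starts. The 250 bases before each RefSeq start (GRCm38.p6) were searched on both strands for TGATGNAA, where N is any base, and for TTGCATCA, whose matches are all among those of the first. Of 31 members 26 had a promoter sequence. A match to TGATGNAA was found in 7 of them (26.9%), against 3.91% of 27025 genes, and a match to TTGCATCA in 5 (19.2%), against 0.918%. The windows below are written 5′ to 3′ along the gene, with the match in capitals:
Asns: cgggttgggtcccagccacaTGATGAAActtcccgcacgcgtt
Pck2: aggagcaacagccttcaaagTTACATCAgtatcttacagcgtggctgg
Pycr1: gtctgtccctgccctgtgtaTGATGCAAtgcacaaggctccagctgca
Nupr1: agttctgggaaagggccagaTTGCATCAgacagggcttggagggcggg
Slc7a11: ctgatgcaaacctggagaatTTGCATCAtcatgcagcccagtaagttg
Chac1: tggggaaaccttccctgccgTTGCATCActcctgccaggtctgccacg
Vldlr: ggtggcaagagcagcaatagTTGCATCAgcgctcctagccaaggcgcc
The Asns window is chr6:7693210-7693252 on the minus strand, and its match begins 23 bases before the start. The Pck2 window is chr14:55540143-55540190 (plus strand, 103 bases before the start) and the Pycr1 window chr11:120643824-120643871 (minus strand, 103 bases). Nupr1 is shown at chr7:126625553-126625600 (minus strand, 110 bases) and Slc7a11 at chr3:50443633-50443680 (minus strand, 47 bases), where a second match lies in the lower-case part and begins 66 bases before the start. The Chac1 window is chr2:119351029-119351076 (plus strand, 193 bases) and that of Vldlr chr19:27216800-27216847 (plus strand, 200 bases). Of the 6 members that separated the groups only Asns is in this set, and Atf4, Ddit4, Psph, Shmt2 and Slc38a2 had no such letters in the window searched. A match is a description of the sequence and not a measured binding site.

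Atf4, the activator that gives the programme its name, was lower in every KO library. The gene lies on the plus strand of chromosome 15, 80255184 to 80257541 in GRCm38. Its levels were 464, 362 and 317 CPM in WT against 176, 188 and 172 in KO. The WT libraries were spread over a wider range than the KO libraries and the groups did not overlap. The means were 381 ± 75.4 and 179 ± 7.88 CPM (SD, n = 3), a WT level 2.13 times that of KO, with a log2 fold change of -1.09 (SE 0.26, 95% interval -1.65 to -0.53; edgeR adjusted p = 0.11). In the annotated transcript with the longest coding sequence the leader holds 3 upstream ATG codons. One frame has 3 codons before its stop, and another runs 59 codons and past the main start in a different frame. The leader makes up 34.4% of that transcript. The table gives 1 count per gene, and the sources used here do not say whether leader fragments were counted, so fragments on these upstream frames and on the coding sequence cannot be told apart.

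None of the other transcription factors separated the groups. Cebpb, a C/EBP partner of ATF4, had 153, 118 and 94.8 CPM in WT against 47.6, 112 and 70.4 in KO (log2 fold change -0.67, SE 0.45). Atf5, a related factor also controlled by leader reading frames, had 43.8, 59.0 and 121 CPM in WT against 65.5, 40.7 and 36.3 in KO (-0.65, SE 0.59; -0.12 without WT replicate 3). In both, 1 or 2 libraries of each group lay inside the range of the other. Nupr1, a small stress-induced chromatin protein, ranged from 23.6 to 96.0 CPM over the 6 libraries. Ddit3, the factor CHOP, showed 27, 1 and 0 counts in WT against 94, 0 and 110 in KO, averaging 0.987 molecule equivalents, and its interval ran from -3.05 to 7.17 on the log2 scale. It shares 68 exonic bases with Mars on the opposite strand, which had 2373 counts, and the strand setting of the counting is not given. Cebpb likewise shares 312 exonic bases with Tmem189 (57 counts) and Atf5 shares 82 with Nup62 (927 counts), both on the opposite strand. Cebpg, which forms inactive or activating pairs with other bZIP proteins, had 26 counts over WT and 61 over KO and was not tested. The CHOP arm of the response was thus too sparse to compare at this depth.

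Among enzymes of amino acid synthesis, Asns, which makes asparagine from aspartate and glutamine, had the largest log2 fold change of the 8 members with at least 10 molecule equivalents. It lies on the minus strand of chromosome 6, 7675169 to 7693254 in GRCm38. Its levels were 472, 492 and 340.0 CPM in WT against 112, 237 and 143 in KO. Every KO library was below the lowest WT library. The means of 435 ± 82.6 and 164 ± 65.1 CPM (SD, n = 3) stood in a ratio of 2.65, WT over KO, with a log2 fold change of -1.41 (SE 0.31, 95% interval -2.07 to -0.75; edgeR adjusted p = 0.069).

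Of the serine synthesis enzymes, only the last step separated the groups. Phgdh, the first and committed step from 3-phosphoglycerate, had 154, 136 and 87.9 CPM in WT against 163, 124 and 129 in KO (log2 fold change 0.14, SE 0.37, 95% interval -0.64 to 0.92). Psat1, the transaminase that follows, stood at 544, 725 and 828 CPM in WT against 568, 388 and 605 in KO (-0.43, SE 0.23). The groups overlapped for both. Psph, the phosphatase that releases serine (chromosome 5, 129765558 to 129787449, minus strand), had 127, 179 and 129 CPM in WT against 103, 73.6 and 54.9 in KO. Here the groups did not overlap, with a log2 fold change of -0.91 (SE 0.41; edgeR adjusted p = 0.71). Psph shares 452 exonic bases with the chaperonin gene Cct6a on the opposite strand, which had 11073 counts over the 6 libraries and stood at -0.22 (SE 0.19), so part of the Psph count is uncertain.

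The mitochondrial one-carbon enzymes use the serine made by that route. Shmt2, which splits serine into glycine and a folate-bound carbon (chromosome 10, 127517123 to 127522444, minus strand), had 482, 441 and 446 CPM in WT against 376, 304 and 332 in KO. The groups separated, but by a small margin: the means were 456 ± 22.5 and 337 ± 35.9 CPM (SD, n = 3), with a log2 fold change of -0.44 (SE 0.22; edgeR adjusted p = 0.85). Mthfd2, the next enzyme, ranged from 41.5 to 115 CPM in WT and from 22.0 to 79.2 CPM in KO (-0.67, SE 0.62). Aldh1l2, which oxidises the carbon to carbon dioxide, had 24 counts over WT and 125 over KO. It shares 1056 exonic bases with D10Wsu102e on the opposite strand, which had 248 counts, so its own count is uncertain. Pck2, the mitochondrial enzyme that makes phosphoenolpyruvate, had 138, 134 and 120.3 CPM in WT against 158, 70.2 and 78.5 in KO, where KO replicate 1 lay above all WT libraries and the other two below them. Cth and Cbs, the enzymes that make cysteine from homocysteine, had 0 counts over WT and 68 and 1 over KO, and 63 of the 68 Cth counts came from KO replicate 2. Pycr1, the last enzyme of proline synthesis, had 1 count over WT and 69 over KO. Aldh1l2 averaged 0.636 molecule equivalents and the other three at most 0.247, so no fold is given for them.

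Among the amino acid transporters 1 of 6 tested separated the groups, as lower. That was found for 7.93% of all tested genes and 13.0% of those averaging at least 100 CPM. Slc38a2, the sodium-coupled neutral amino acid transporter SNAT2 (chromosome 15, 96687392 to 96699730, minus strand), had 1137, 898 and 1047 CPM in WT against 839, 668 and 720.4 in KO. All KO libraries were below all WT libraries, with a log2 fold change of -0.47 (SE 0.19, 95% interval -0.87 to -0.07; edgeR adjusted p = 0.57). Scaled by library totals instead of TMM its groups overlapped, and 5 members separated. Slc7a1, the cationic transporter that carries arginine and lysine, had 303, 200.4 and 202 CPM in WT against 409.6, 262 and 228 in KO (0.35, SE 0.30, 95% interval -0.30 to 1.0). Slc1a5, the glutamine carrier ASCT2, averaged 81.1 ± 41.6 CPM in WT against 100.4 ± 28.9 in KO (SD, n = 3; 0.31, SE 0.50).

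Slc7a5 and Slc3a2 encode the light and heavy chains of the leucine transporter LAT1, and Slc3a2 also serves other light chains. Slc7a5 had 151, 136 and 136 CPM in WT against 225, 125 and 169 in KO (log2 fold change 0.30, SE 0.34). Slc3a2 had 187, 229 and 331 CPM in WT against 245, 172 and 217 in KO (-0.24, SE 0.30). Both genes had KO values on each side of a WT value. Per kilobase of coding sequence Slc7a5 stood at 91.7 ± 5.60 and Slc3a2 at 147 ± 43.7 CPM in WT, and at 113 ± 32.4 and 125 ± 21.7 CPM in KO. Slc7a11, the cystine importer xCT, averaged 1.48 molecule equivalents (-0.93, SE 1.55). Slc7a3, another cationic transporter, had 30 counts over WT, 29 of them in WT replicate 3, and none over KO, and was not tested.

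Of the 7 feedback and effector genes only Ddit4 averaged at least 3 molecule equivalents, at 5.37. Ddit4 (REDD1), a stress-induced inhibitor of mTORC1 signalling, lies on the minus strand of chromosome 10, 59949669 to 59951834 in GRCm38. Its counts were 169, 276 and 173 in WT against 48, 47 and 73 in KO, and its levels 103, 138 and 100.0 CPM in WT against 18.7, 20.1 and 22.6 in KO. The KO libraries lay close together and far below the WT libraries. The WT mean of 114 ± 21.1 CPM was 5.54 times the KO mean of 20.5 ± 1.99 CPM (SD, n = 3), with a log2 fold change of -2.47 (SE 0.53, 95% interval -3.60 to -1.33; edgeR adjusted p = 0.065). Its KO counts were just above the modal counts of 42, 46 and 60, little more than 1 molecule equivalent each, so the size of the difference is uncertain.

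The remaining effectors were near the limit of detection. Trib3, a pseudokinase that restrains ATF4 and CHOP, showed 27, 92 and 1 counts in WT against 71, 0 and 32 in KO. Chac1, which degrades glutathione, had 7, 28 and 48 in WT against 86, 4 and 58 in KO. Ppp1r15a (GADD34), the phosphatase subunit that reverses eIF2 phosphorylation, had 27, 50 and 0 in WT against 0, 51 and 153 in KO. In both groups each of these genes had a library with few or no counts beside one with far more. Vegfa, the angiogenic factor, and Vldlr, a lipoprotein receptor, averaged 1.16 and 0.437 molecule equivalents. Stc2, a secreted glycoprotein, had 0 counts in all 6 libraries. If each count were an independent molecule, that would allow up to 3 counts or 0.931 to 1.82 CPM per library. With modal counts of 15 to 60 read as 1 molecule, the true limit is higher than this, and it covers counting error only.

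**Figure D2:**
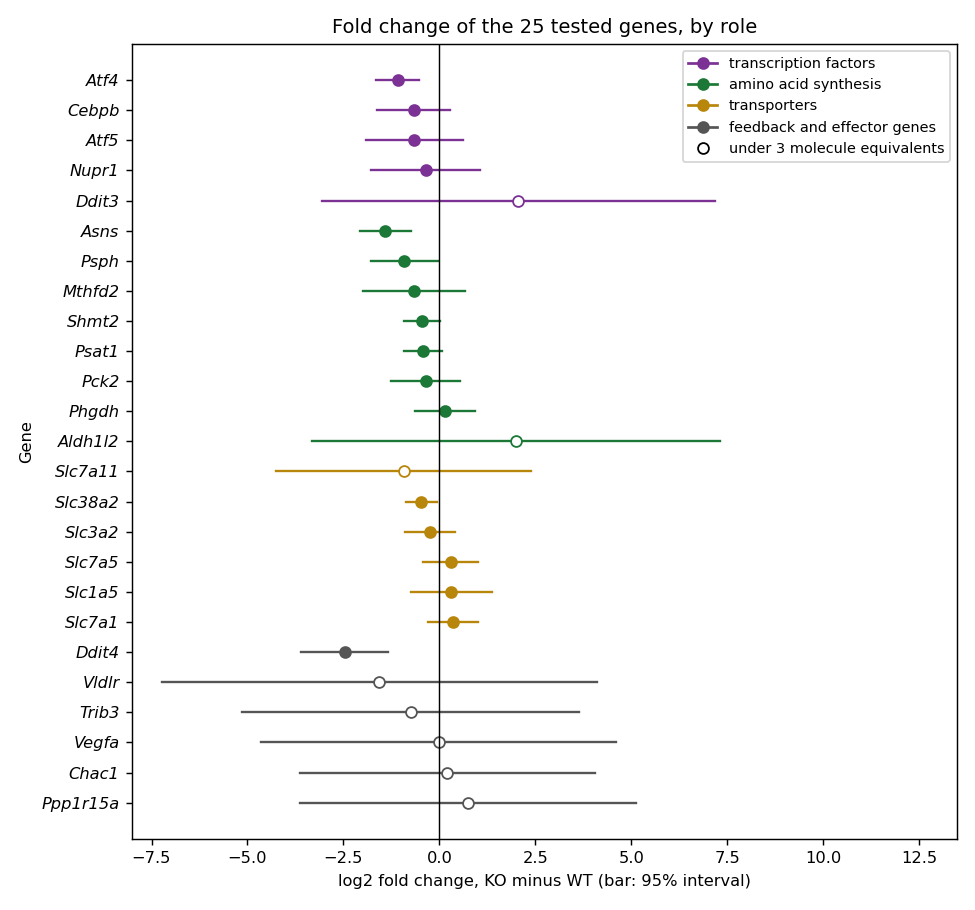
Log2 fold change, KO minus WT, of the 25 tested members with 95% intervals from edgeR, coloured by role, open circles marking members under 3 molecule equivalents. The intervals of Ddit4, Asns, Atf4, Psph and Slc38a2 lie below 0, and the open circles have intervals several log2 units wide on each side.

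Members were also read by depth. Of the 8 tested members with at least 10 molecule equivalents on average, 6 had negative fold changes and 4 separated the groups as lower. Over all 1179 tested genes of that depth 59.0% were negative and 15.4% separated as lower. Among the 8 members under 3 molecule equivalents, 4 were negative and 0 separated, where 5.87% of 4569 genes of that depth separated as lower. Levels per kilobase of coding sequence put Slc38a2 (679.6 ± 79.7 CPM per kilobase, SD, n = 3) and Psat1 (629.8 ± 129) first in WT, and these neighbours differed by less than their spread. Atf4 (364 ± 72.0), Shmt2 (302 ± 14.9), Asns (258 ± 49.1) and Nupr1 (255 ± 142) followed, and each differed from the next by less than the larger of their SDs. In KO, Slc38a2 (491 ± 58.0) and Psat1 (469 ± 104) were again first, followed by Shmt2 (223 ± 23.8), Nupr1 (199 ± 106) and Atf4 (171 ± 7.53), with Asns at 97.4 ± 38.7 and Ddit4 at 29.8 ± 2.89.

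By role, the median log2 fold change was -0.65 over 5 tested transcription factors, -0.43 over 8 synthesis enzymes, 0.029 over 6 transporters and -0.38 over 6 effectors, of which 4, 6, 3 and 4 were negative. Summed over its 6 members, the transcription factor group had 719, 601 and 629 CPM in WT against 399.9, 411 and 337 in KO. Atf4 made up 64.6%, 60.2% and 50.4% of that sum in WT and 44.0%, 45.6% and 51.2% in KO, and the sums of the other 5 factors (255, 239 and 312 against 224, 224 and 164 CPM) did not overlap either. The 11 synthesis genes summed to 2033, 2161 and 2031 CPM in WT against 1581, 1292 and 1394 in KO. For both roles every KO library was below every WT library. The 7 transporters summed to 1869, 1624 and 1814 CPM in WT against 1806, 1383 and 1438 in KO, and these overlapped. The 7 effectors summed to 179, 234 and 156 CPM in WT against 80.8, 53.9 and 143 in KO, also without overlap. That separation rested on Ddit4: the other 6 summed to 76.6, 95.9 and 55.5 CPM against 62.0, 33.8 and 120.1 CPM, which overlapped, with KO replicate 3 the highest. These medians rest on few genes: without WT replicate 3 that of the factors was -0.001 and without KO replicate 3 it was -0.27. Both of these fits tested 26 members, and Cebpg entered the factor median. Over the 5 factors tested with all libraries, the middle value in these fits was that of Atf5, at -0.12 and -0.50. Without KO replicate 1 the median of synthesis was -0.66. The transporter median was negative in 5 of the 6 fits that left out a library, and the effector median turned to 0.22 without KO replicate 2.

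**Figure D3:**
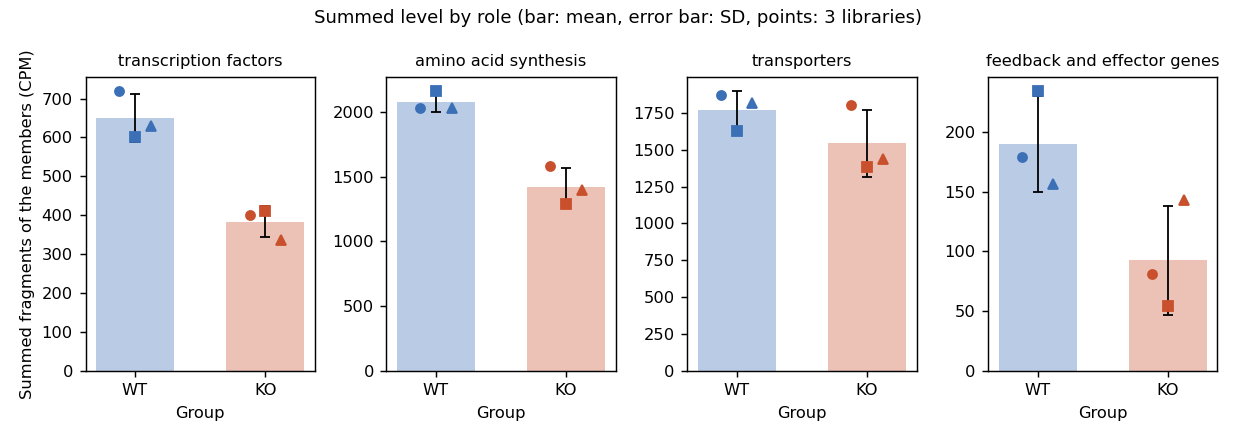
Summed CPM of the members of each role, with a bar at the group mean, an error bar of 1 SD and a point for each of the 3 libraries (circle, square and triangle for replicates 1, 2 and 3). The transcription factor, synthesis and effector sums separate WT from KO, the last only with Ddit4 included, whereas KO replicate 1 of the transporters, at 1806 CPM, lies inside the WT range.

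Ratios of counts within a library do not depend on any scaling between libraries, and those given were chosen after the values were seen. The synthesis genes together had 1.09, 1.33 and 1.12 times the counts of the transporters in WT and 0.876, 0.934 and 0.969 times in KO. Atf4 had 0.248, 0.223 and 0.175 counts per transporter count in WT and 0.0974, 0.136 and 0.12 in KO. Asns had 1.56, 2.45 and 1.68 times the counts of Slc7a1 in WT and 0.272, 0.902 and 0.629 times in KO. None of these 3 ratios overlapped between groups, the first only with Asns included. Without the Asns counts, the ratio of synthesis to transporter genes was higher in KO replicate 3 than in WT replicate 1. Ddit4 was lower relative to Atf4 as well, at 0.221, 0.381 and 0.316 in WT against 0.106, 0.107 and 0.131 in KO. The ratio of Asns to Atf4 overlapped, at 1.02, 1.36 and 1.07 in WT against 0.634, 1.26 and 0.831 in KO. With 3 libraries a group these ratios are given without a test.

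Upstream of ATF4, fold changes of both signs were seen. Of 20 tested genes for eIF2, its kinases and phosphatases, their regulators and the exchange factor eIF2B, none was called, 12 were negative and their median was -0.19. In KO 4 of the 20 lay wholly lower and 2 wholly higher, against 7.93% and 6.94% of all tested genes. Impact, which restrains the amino acid sensing kinase GCN2, had 214, 175 and 204 CPM in WT against 412, 278 and 487 in KO, wholly higher (log2 fold change 0.99, SE 0.28, edgeR adjusted p = 0.25). Eif2s2, the beta subunit of eIF2, had 337, 212 and 306 CPM in WT against 179.8, 54.8 and 132 in KO, wholly lower (-1.22, SE 0.39, adjusted p = 0.42). The catalytic phosphatase subunit Ppp1ca also separated as lower (-0.63, SE 0.24), and Eif2ak2, the double-stranded RNA kinase PKR, stood at 58.7 ± 23.2 CPM in WT against 125 ± 41.0 in KO with overlapping libraries (1.09, SE 0.48). The kinases Eif2ak3 (PERK), Eif2ak4 (GCN2) and Eif2ak1 (HRI) averaged 21.1 to 68.9 CPM in either group, with standard errors of 1.28, 0.87 and 0.64. Phosphorylation of eIF2 is not measured by fragment counts.

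Other ATF4-responsive genes outside the 31 were read from lists of related genes. None of 13 tRNA synthetase and tRNA export genes was called, 10 were negative and the median was -0.19. Mars, Lars and Nars, which charge methionine, leucine and asparagine tRNA, had log2 fold changes of -0.81 (SE 0.32), -0.65 (SE 0.26) and -0.48 (SE 0.21), and their groups did not overlap. In all, 4 of the 13 lay wholly lower and 0 wholly higher, against 7.93% and 6.94% of all tested genes. Of the 13, 12 averaged at least 100 CPM, a level at which 13.0% of genes lay wholly lower. Among 15 tested bZIP factors none was called and 7 were negative. Creb3, an ER-anchored bZIP factor, came closest, at 181, 169.9 and 116 CPM in WT against 416, 317 and 414 in KO (1.3, SE 0.28, edgeR adjusted p = 0.066). Atf3, a stress factor downstream of ATF4, had 10 counts over WT and 236 over KO, wholly higher but averaging 0.827 molecule equivalents. Xbp1, a factor of the unfolded protein response, averaged 294 ± 159 CPM in WT against 187 ± 39.4 in KO, and WT replicate 3, at 478 CPM, stood far above the other two.

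In the remaining lists, too, none was called. Of 11 tested one-carbon and glycine genes 7 were negative (median -0.14), and of 14 other synthesis genes 7 were negative (median 0.01). Of 9 other amino acid transporters 7 were positive (median 0.48), among them Slc6a6, the taurine carrier, with 510.1, 813 and 543 CPM in WT against 849, 879.9 and 876 in KO (0.48, SE 0.21). Of 14 other stress-responsive genes 7 were negative. In each of these last 2 lists 2 genes lay wholly higher in KO and 0 wholly lower, against 6.94% and 7.93% of all tested genes. Slc6a6 and Slc1a4 (52 counts over WT, 383 over KO, 1.76 molecule equivalents) were those transporters. The stress-responsive ones were Gadd45a and Tnfrsf10b (14 counts over WT, 224 over KO, 0.899 molecule equivalents). Gadd45a, a growth arrest gene also induced by p53, had 4 counts over WT and 322 over KO at 1.06 molecule equivalents, and Txnip, a glucose-responsive arrestin, averaged 144 ± 38.7 CPM in WT against 55.8 ± 52.1 in KO (SD, n = 3; -1.37, SE 0.58).

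Leaving out single libraries kept Atf4, Asns and Ddit4 negative in all 6 fits each. Atf4 ranged from -1.21 to -0.93, Asns from -1.76 to -1.19 and Ddit4 from -2.55 to -2.30 on the log2 scale. Of these 18 fits a single one passed the threshold, Asns without KO replicate 2 (edgeR adjusted p = 0.038). Psph, Shmt2 and Slc38a2 were also negative in all 6, whereas Phgdh turned to -0.064 without WT replicate 3 and Slc7a1 stayed positive, from 0.067 (without KO replicate 1) to 0.57. Some other members kept their sign, with ranges for Atf5 from -0.95 to -0.12, Cebpb from -1.03 to -0.42 and Mthfd2 from -1.18 to -0.29. Pck2 ran from -0.81 to -0.15, Psat1 from -0.58 to -0.24 and Slc7a5 from 0.073 to 0.49. The sign did not hold in every fit for Nupr1, Slc3a2, Slc1a5, Chac1, Trib3, Ppp1r15a and Vegfa.

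**Figure D4:**
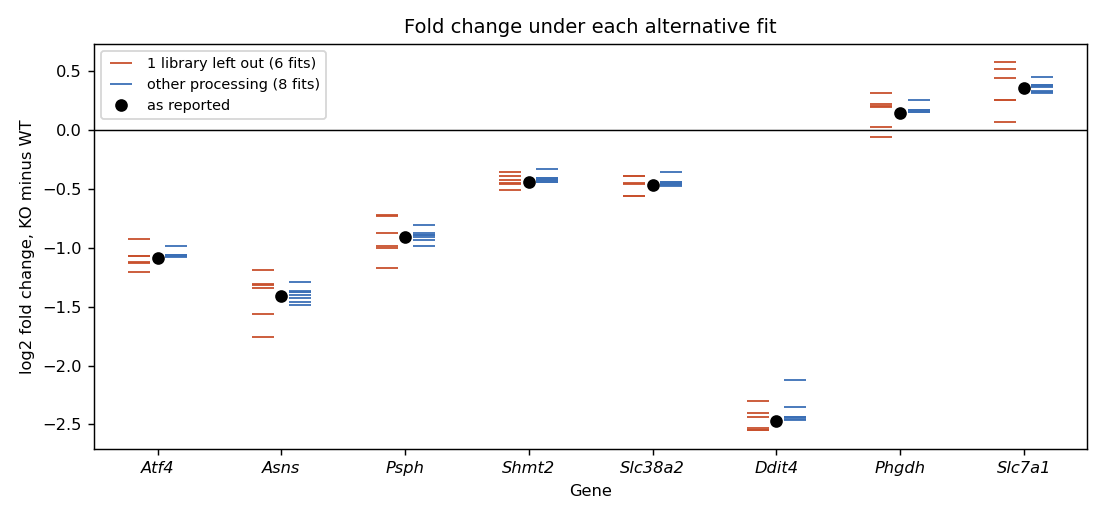
Log2 fold change, KO minus WT, of 8 members as reported (black), with 1 library left out (6 fits) and under 8 other processing choices. Atf4, Asns, Psph, Shmt2, Slc38a2 and Ddit4 lie below 0 in each fit, and Phgdh and Slc7a1 lie near or above it.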

How the data were processed

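Per the labels' protocols, fragments were trimmed with cutadapt, those of 25 to 34 nt kept, rRNA and tRNA reads removed with Bowtie, and HISAT2 (genome, GRCm38/mm10) and Bowtie (transcripts) used to align the rest. The submitters' processing notes add featureCounts and DESeq2 with no version or role. The authors deposited whole-number counts per Ensembl gene, not normalized. The sources used here do not give the annotation, strand setting or handling of multiple matches and duplicates, so amplified or shared fragments may be miscounted. Whether replicates are separate cultures is not stated, so the p-values cover the spread among these libraries alone, which may be technical.

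The whole table of 53465 genes went into edgeR 4.0.16 (R 4.3.3), with its robust quasi-likelihood test, TMM factors, filterByExpr by group and Benjamini-Hochberg over the 8200 genes kept. DESeq2 1.42.0 and limma 3.58.1 were alternatives. The fit was tested on simulated counts. There it recovered 4.61% of 2-fold, 17.8% of 4-fold and 41.1% of 8-fold changes at all levels. At 200 CPM or more it recovered 23.1%, 80.6% and 100% of them. The modal count is the highest interior peak of smoothed gene counts from 8 to 150 (bandwidth 3). Promoters come from RefSeq; 8 of 8 windows matched the genome of that build. Figures used matplotlib 3.10.9.

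The members and gene lists were chosen with earlier results of these data known. Members with non-overlapping groups or an unadjusted p under 0.05 are given per library, and up to 4 genes per related list with the smallest p are eligible to be named. The kinases Eif2ak1, Eif2ak3 and Eif2ak4 fall outside this rule and were added after their values were seen.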

Additional observations from a re-analysis of the deposited data

How the results depend on the processing

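The number of members called was 0 as reported and depended on the tool, at 3 with DESeq2, 2 with limma-voom, 2 with no count filter, 1 with the replicate block and 3 on molecule equivalents. Same-numbered libraries did not deviate together (correlations -0.017, -0.003 and -0.007), so the numbers were not taken as pairs. The block changed no other call among the members, and the genes behind these calls were Asns in all 5, Ddit4 with DESeq2, no count filter and molecule equivalents, and Atf4 with DESeq2, limma-voom and molecule equivalents. The transporter median moved to 0.13 with library totals and turned to -0.23 with no count filter. In that last fit 30 members were tested, and the sparse Slc7a3 joined the transporters, so the median is over a different set of genes. The effector median moved to -1.41 with limma-voom and -1.39 with the replicate block. Without a count filter 1 member, Cth, lay wholly higher in KO. Leaving out single libraries gave 0 to 1 members called, 16 to 18 negative, 6 to 8 wholly lower and 0 to 2 wholly higher. The medians then ran from -0.50 to -0.24 (without KO replicate 2) over all members, -0.71 to -0.001 for transcription factors (the latter without WT replicate 3), -0.66 to -0.30 for synthesis, -0.14 to 0.023 for transporters (below 0 in 5 of 6) and -0.83 to 0.22 for effectors (the latter without KO replicate 2). The fits without 1 library tested 25 or 26 members, so their medians are not all over the same genes. The cause of the shifts was not otherwise tested. Signs turned under other settings for sparse members: Vegfa to 0.013 with DESeq2 and with its size factors, 0.084 with library totals and 0.005 with no filter, Chac1 to -0.085 with limma-voom and -0.33 with the replicate block, Trib3 to 0.23 and Ppp1r15a to -0.13 with that block. Without single libraries Vegfa ran from -5.07 to 0.93, Chac1 from -0.62 to 0.95, Trib3 from -2.04 to 0.56, Ppp1r15a from -0.34 to 1.49, Nupr1 from -0.83 to 0.11, Phgdh from -0.064 to 0.31, Slc3a2 from -0.41 to 0.020 and Slc1a5 from -0.025 to 0.73. All 33 calls over the whole table became 237 with DESeq2, 93 with limma-voom, 91 with no filter and 115 on molecule equivalents, and fell to 29, 6 and 6 without WT replicates 1, 2 and 3 and to 15, 20 and 18 without KO replicates 1, 2 and 3. Depth limits members under 3 molecule equivalents to very wide intervals.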
